A study of Mus musculus with 12 samples.

Results

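The response of cultured mouse endothelial cells to 4 h of soluble tumour necrosis factor alpha (TNF) was read from 8 of the 12 arrays of the series, 4 labelled as treated with soluble TNF and 4 labelled as controls. The members were all genes that could be measured on these 8 arrays: of 45101 probe sets, 34945 named 1 gene, 16884 of those reached a signal of 100 on at least 4 of the 8 arrays, and these represented 9752 genes. Of these genes, 18 passed only because 1 group reached the limit while the other lay wholly under it. The cells came from wild-type newborn mice and were grown in DMEM with fetal calf serum, glutamine and antibiotics. Controls were mock-transfected, and the treated cells received soluble TNF at 20 ng/ml for 4 h. The description of the treated cells also holds the words "transfected with" but names no construct, so whether they were mock-transfected like the controls is not known here. The remaining 4 arrays came from cells stably transfected with a non-cleavable transmembrane TNF (tmTNF) and were used to estimate the spread between arrays and for 1 direct comparison. Each array was made from about 5 micrograms of total RNA. The labels name no tissue of origin, no clone and no pooling, and they do not say whether replicates were separate cultures or animals, so every p-value reflects array-to-array spread alone, and that spread may be technical.

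TNF binds the receptors Tnfrsf1a and Tnfrsf1b, and the adaptors recruited to them activate the IKK kinases. IKK marks the inhibitors of NF-kB for degradation, and NF-kB dimers then enter the nucleus and switch on genes for adhesion molecules, chemokines, survival factors and the inhibitors that end the response. In endothelium this programme makes the vessel wall capture leukocytes, changes vascular tone and loosens the barrier.

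All 8 arrays carried endothelial RNA, although the cultures were not alike. All 24 endothelial markers listed reached a signal of 100 on at least 1 of the 8 arrays, and their summed signal ran from 27468.5 to 209146.6 in controls and from 78052 to 152702.9 after soluble TNF, with the lowest sum on control 3. Col3a1, a fibrillar collagen of mesenchymal cells, had signals of 6.0, 48.6, 4546.6 and 1900.9 on controls 1 to 4, and of 4119.1, 1.6, 13.5 and 3758.3 on soluble TNF arrays 1 to 4. Both groups thus held 2 arrays above and 2 below a signal of 100 for Col3a1. Of 15 fibroblast markers 8 reached 100 on some array, and Dcn, Lum, Thy1, Fap, Dpt, Postn and Twist1 did not. Of 12 mesothelial markers 4 reached 100, with summed signals of up to 15807.2 on control 3 and up to 4595 after soluble TNF. Of 9 leukocyte markers 3 reached 100, while Ptprc, which defines the lineage, stayed under it on every array. The lymphatic marker Prox1, the smooth muscle marker Myh11 and the epithelial marker Cdh1 also stayed under 100 on every array. Correlations between arrays across the 9752 genes, which are not independent replicates, ran from 0.738 to 0.875 within controls and from 0.873 to 0.984 within soluble TNF. Control 4 correlated better with every soluble TNF array (0.888 to 0.948) than with any other control (0.804 to 0.875). A control probe set for the 5' end of 18S ribosomal RNA gave a mean of 131 in controls and 387.9 after soluble TNF. The ratio of 3' to 5' signal of Actb was 1.185 to 1.291 in controls and 1.101 to 1.156 after soluble TNF. Neither measure overlapped between the groups. The probe set for the 3' end of 18S did overlap, at 261.9 to 465.8 in controls and 402.3 to 718.8 after soluble TNF. The part that RNA quality and the mix of cells have in the results was not tested. In bulk RNA, fewer cells of a type and less RNA per cell cannot be told apart.

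After 4 h of soluble TNF, 4 genes rose past an adjusted p of 0.05 and 0 fell. They were Nfkb2, a subunit of NF-kB, Edn1, the precursor of the vasoconstrictor endothelin 1, Rgs16, which shortens G protein signals, and Slc12a2, a cotransporter of sodium, potassium and chloride. The test was a limma fit adjusted by the Benjamini-Hochberg method across 9752 genes, and those called higher made 0.041% and those called lower 0% of all genes tested. Without adjustment, p was under 0.05 for 550 genes with higher and 716 with lower values. All 4 treated arrays lay above all 4 controls in 373 genes (3.82% of those tested) and below them in 435 genes (4.46%). With arrays scaled to the same median these counts were 474 and 247, so the balance between the directions depended on the scaling. The median log2 difference over all genes was -0.04, with 46.7% of genes above 0. The shares of 3.82% and 4.46% are those to set beside the counts of separate members of each list below.

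**Figure D1:**
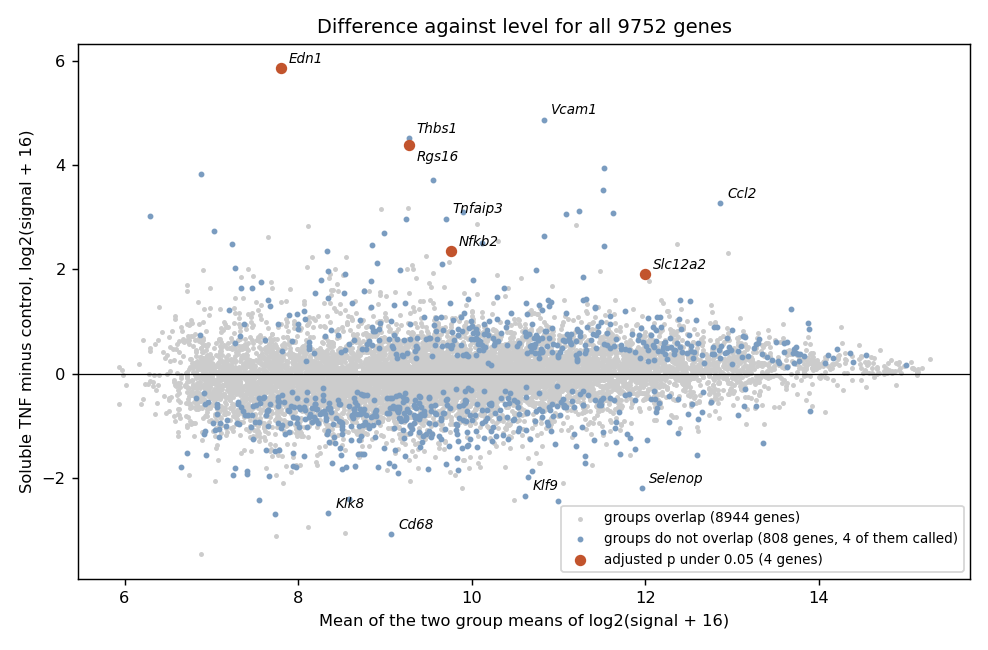
Difference between soluble TNF and control (log2 of signal + 16) against the mean level for the 9752 genes, 1 point per gene. The 4 called genes all lie above 0, at 1.91 to 5.86 (the highest, Edn1, with all controls under a signal of 100, so that its fitted size is not a measured one), while the genes whose groups did not overlap lie on both sides (373 higher and 435 lower).

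The number of genes called depended on single arrays. Without control 4, 32 genes were called, 19 higher and 13 lower, and without control 3 there were 6. There was 1 without control 1, without control 2 or without soluble TNF array 2. There were 2 without soluble TNF array 4 and 0 without soluble TNF array 1 or array 3 (887 and 1075 genes at an unadjusted p under 0.05). Within the 8 arrays alone, 2 genes were called, Nfkb2 and Edn1. Called without control 4 were also Ccl2, Thbs1, Prss23, Tnip1, Tslp and Rbmx as higher and Bhlhe40 and Asah1 as lower, all 8 named here after their values were seen.

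The TNF receptors came first in the pathway. Tnfrsf1a, the receptor that soluble TNF engages on most cells, had signals of 4402.9, 6340.3, 3107.3 and 3970.8 on controls 1 to 4 and of 1595.3, 2051.6, 2371.8 and 1954.6 on soluble TNF arrays 1 to 4. Every treated array lay below every control, and the log2 difference of -1.12 ± 0.31 (SE, n = 4 per group) did not pass (adjusted p = 0.236). Tnfrsf1b, the second receptor, overlapped between groups, with signals of 140 to 485 in controls and 107 to 184.8 after soluble TNF. Tnf itself stayed under 100 on all 8 arrays, at no more than 25.7 in controls and 14.3 after treatment.

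Receptor adaptors were mixed in direction. Of 24 receptor and adaptor genes measured, groups did not overlap in 3 with higher and 2 with lower values, and 0 passed. Over all genes tested these shares were 3.82% and 4.46%. The median of the list was 0.05 (-0.08 without control 3), against -0.04 for all genes. Traf1, an adaptor that NF-kB itself induces, had signals of 10.9, 4.4, 2.2 and 41.7 in controls and of 194.5, 158.6, 414.7 and 145.3 after soluble TNF. All 4 controls lay under the limit of 100, so the size is a lower bound: against a level of 100, set in place of background because detection calls were not used, Traf1 was at least 1.94-fold higher (adjusted p = 0.278). Birc3, a ubiquitin ligase that protects cells from TNF-induced death, had signals of 333.4, 632.9, 422.3 and 218.2 against 1159.6, 2141.8, 3029.8 and 1020.1. Its groups did not overlap, and its log2 difference was 2.11 ± 0.45 (adjusted p = 0.164). Traf2, the adaptor that carries Birc3 to the receptor, was the third with separate groups, at 359.5 to 676.4 in controls and 748.4 to 828.3 after soluble TNF. Madd, a protein that binds the death domain of Tnfrsf1a, lay below control on every treated array, like the receptor (-0.70 ± 0.32, adjusted p = 0.382).

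Among NF-kB subunits and kinases, Nfkb2 was the gene that passed. Nfkb2 encodes p100, which is processed to p52, the partner of Relb. Its signals were 258.6, 432.9, 379.4 and 432.4 in controls and 2526.8, 1564.5, 1955.9 and 1858.4 after soluble TNF. The groups stood far apart, and Nfkb2 rose 5.11-fold (log2 2.35 ± 0.26, n = 4 per group, adjusted p = 0.00963). A second Nfkb2 probe set also separated the groups, with a log2 difference of 1.64 ± 0.34. Nfkb2 kept its call in 10 of the 12 fits that left out 1 array and lost it without soluble TNF array 1 or array 3, while its log2 difference stayed between 2.19 and 2.46.

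The other subunits had values in the same direction without passing. Relb had signals of 267.1, 405.2, 358.1 and 141.1 against 1119.1, 923.7, 1981.6 and 790.5, and a log2 difference of 1.98 ± 0.46 (adjusted p = 0.196). Rela, the main activating subunit of the classical pathway, had signals of 1520.3 to 2535.4 in controls and 2866.7 to 4311.3 after treatment (0.80 ± 0.21, adjusted p = 0.216). Ikbke, an inducible kinase related to IKK, had separate groups too, at 94.8 to 226.8 against 282.8 to 498.6. The kinases that run the pathway without being induced did not separate: Ikbkb differed by 0.09 ± 0.19, Tbk1 by -0.18 ± 0.18 and Map3k14 by -0.06 ± 0.30. Of the 9 members measured, 4 had separate groups with higher values and 0 with lower. The median was 0.63, and -0.05 with every probe set tested on its own.

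The inhibitors that NF-kB induces to end its own activity were split in the same way. Tnfaip3 (A20), an enzyme that edits ubiquitin chains on receptor complexes, had signals of 448.9, 308.2, 255.5 and 174.2 in controls and of 1428.7, 2457.7, 3811.5 and 2135.9 after soluble TNF. The lowest treated array lay well above the highest control, with a log2 difference of 2.97 ± 0.52 (adjusted p = 0.0958), and a second probe set gave 3.02 ± 0.49. Tnip1, which binds A20 and brings it to its substrates, had signals of 1184.5, 1718.7, 1153.9 and 1214.4 against 4209, 3673.2, 8575.5 and 3796.5 (1.85 ± 0.29, adjusted p = 0.0693). Of the genes named here that were not called, Tnip1 passed without control 4 (adjusted p = 0.0498) and Tnfaip3 passed without tmTNF array 1 (adjusted p = 0.0124).

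The inhibitors of the IkB family bind NF-kB directly. Nfkbie (IkB epsilon) had signals of 260.4, 1096.7, 61.9 and 62.7 in controls and 1913.8, 2975.4, 6540.6 and 1462 after soluble TNF, a difference of 3.71 ± 0.84 over a wide control spread (adjusted p = 0.181). Nfkbia (IkB alpha), the first inhibitor to be resynthesised, was already bright in controls at 4163.7 to 12231.3 and stood at 18267.8 to 22061.8 after treatment (1.23 ± 0.34, adjusted p = 0.233). Nfkbib (IkB beta) separated as well, at 685.6 to 1281 against 1452.4 to 2230.6. The atypical members Nfkbiz (-0.30 ± 0.47) and Nfkbid (-0.24 ± 0.62) overlapped, as did the deubiquitinase Cyld (0.69 ± 0.34). In all, 5 of the 13 measured inhibitors had separate groups with higher values, 0 had lower ones and 0 passed, and the median was 0.07, with the other 8 members between -0.66 and 0.69.

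**Figure D2:**
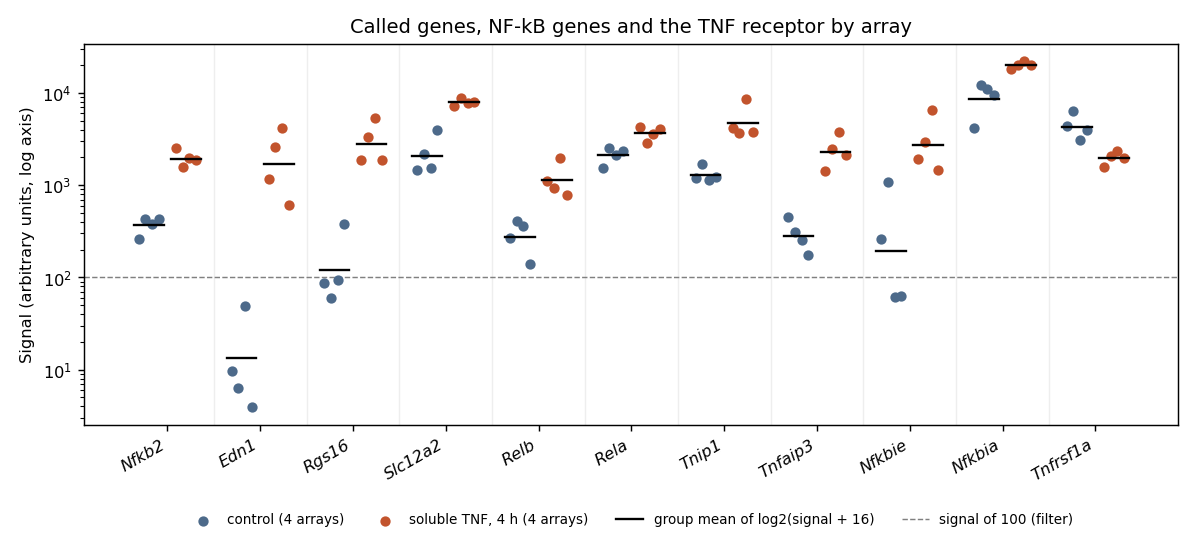
Signal (log axis) of the 4 called genes, of NF-kB subunits and inhibitors and of the receptor Tnfrsf1a, with 1 point per array (4 control and 4 soluble TNF) and a bar at the group mean of log2(signal + 16). All groups shown are separate: the first 10 genes lie higher after soluble TNF and Tnfrsf1a lies lower (1595.3 to 2371.8 against 3107.3 to 6340.3).

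The promoters of genes with higher values were searched for the NF-kB motif. From the RefSeq promoter table (build GRCm38.p6, 250 bases before to 50 after each transcript start), the 6 promoters below were taken by p-value: of the called genes and the members of the NF-kB, chemokine and adhesion lists whose treated arrays all lay above all controls, they are those with the smallest p that have a listed promoter, with Slc12a2 left out. They are read 5′ to 3′ on the gene's strand. Capitals mark matches to the kappaB consensus or to the AP-1 motif TGANTCA on either strand, and where a gene has several starts the one with the most kappaB matches is shown. Nfkb2 lies at chr19:46304487-46304786 (plus strand), Edn1 at chr13:42301226-42301525 (plus), Rgs16 at chr1:153740103-153740402 (plus), Tnip1 at chr11:54962891-54963190 (minus), Tnfaip3 at chr10:19015361-19015660 (minus) and Cxcl12 at chr6:117168285-117168584 (plus).
Nfkb2: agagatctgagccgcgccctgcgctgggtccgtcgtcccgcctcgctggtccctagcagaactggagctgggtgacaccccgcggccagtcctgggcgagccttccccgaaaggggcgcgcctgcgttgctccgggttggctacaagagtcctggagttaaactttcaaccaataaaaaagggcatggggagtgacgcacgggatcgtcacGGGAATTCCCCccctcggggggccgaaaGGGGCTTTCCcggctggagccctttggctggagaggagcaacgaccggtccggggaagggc
Edn1: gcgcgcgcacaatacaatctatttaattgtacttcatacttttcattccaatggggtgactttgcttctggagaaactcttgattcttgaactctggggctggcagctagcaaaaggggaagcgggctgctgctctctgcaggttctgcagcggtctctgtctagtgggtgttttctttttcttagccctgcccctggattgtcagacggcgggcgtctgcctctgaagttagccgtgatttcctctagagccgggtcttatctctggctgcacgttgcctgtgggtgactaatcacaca
Rgs16: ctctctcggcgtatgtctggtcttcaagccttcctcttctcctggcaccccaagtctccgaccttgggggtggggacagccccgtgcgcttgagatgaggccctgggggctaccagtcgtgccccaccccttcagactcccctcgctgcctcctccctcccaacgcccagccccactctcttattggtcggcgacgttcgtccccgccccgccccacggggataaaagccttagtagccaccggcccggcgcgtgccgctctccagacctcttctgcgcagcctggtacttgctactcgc
Tnip1: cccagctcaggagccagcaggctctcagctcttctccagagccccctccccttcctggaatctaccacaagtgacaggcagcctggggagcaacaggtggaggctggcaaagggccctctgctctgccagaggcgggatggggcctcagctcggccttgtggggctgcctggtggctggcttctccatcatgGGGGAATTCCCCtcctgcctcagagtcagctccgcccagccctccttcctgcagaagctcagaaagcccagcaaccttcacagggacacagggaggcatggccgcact
Tnfaip3: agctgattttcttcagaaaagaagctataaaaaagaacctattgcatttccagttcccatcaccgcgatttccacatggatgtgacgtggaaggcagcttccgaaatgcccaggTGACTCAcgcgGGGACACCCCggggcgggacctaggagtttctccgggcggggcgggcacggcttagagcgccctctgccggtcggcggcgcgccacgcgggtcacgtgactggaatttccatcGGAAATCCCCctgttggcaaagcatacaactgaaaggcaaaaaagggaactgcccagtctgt
Cxcl12: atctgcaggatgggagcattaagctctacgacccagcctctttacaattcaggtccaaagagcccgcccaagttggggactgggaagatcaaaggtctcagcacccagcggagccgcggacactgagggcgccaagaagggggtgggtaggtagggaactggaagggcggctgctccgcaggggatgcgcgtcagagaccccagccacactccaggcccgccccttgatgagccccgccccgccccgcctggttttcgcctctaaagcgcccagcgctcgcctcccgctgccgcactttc

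In the Nfkb2 promoter the kappaB matches began 39, 38 and 11 bases before the start, the first pair overlapping each other, and all 3 listed Nfkb2 promoters held the motif. Tnip1 held 3 overlapping matches that began 58, 57 and 56 bases before the start. Tnfaip3 held 2 separate kappaB matches, 125 and 12 bases before the start, and an AP-1 match 136 bases before it, next to the first of them. In Edn1, Rgs16 and Cxcl12 neither motif was found in this window. Among the genes called or with the 12 largest positive differences, 4 of 17 listed promoters (23.5%, 9 of 14 genes with a promoter) held the kappaB consensus, against 1 of 15 (6.67%) among the 12 largest negative differences and 10.5% of the 10247 promoters of all genes tested. The 4 promoters belong to Nfkb2 and Nfkbie alone. Counted by gene, the consensus was held by 2 of 9 higher genes (22.2%) and 1 of 8 lower genes (12.5%). Among all genes tested with a listed promoter the share was 12.4%. The AP-1 motif was held by 5 of the 17 promoters, by 3 of the 15 and by 4.9% of all. A match describes letters in this window, not binding.

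Chemokines, which draw leukocytes to the vessel wall, had higher values in all 11 of the 26 listed members that passed the filter, which high treated values help a gene to pass. The median log2 difference was 2.64, against -0.04 for all genes; 3 members had separate groups and 0 passed the test. With no filter the list median was 1.27. Ccl2, the attractant of monocytes, had signals of 1950, 560.1, 3020.9 and 9514.4 in controls and of 24603.6, 23475.2, 19099.8 and 25817.7 after soluble TNF. Its treated arrays were close together, while the controls differed widely, with control 4 highest (3.27 ± 0.61, adjusted p = 0.142, and adjusted p = 0.00828 without control 4). Cxcl12, a ligand of Cxcr4, had signals of 684.9, 877.6, 486.9 and 1429 against 5868.8, 13133.6, 9661.4 and 3440.3 (3.12 ± 0.67, adjusted p = 0.164). Cxcl1, which attracts neutrophils, had signals of 1985.7, 158.1, 2232.2 and 344.9 against 4473.5, 4187.2, 4164.9 and 5378 (2.64 ± 0.88, adjusted p = 0.278).

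For other chemokines the treated arrays fell into pairs. Ccl7, a relative of Ccl2, had signals of 3648.7 and 4119 on soluble TNF arrays 1 and 4 but of 163.8 and 93.7 on arrays 2 and 3, and its control maximum was 245.3. Ccl5 showed the same pairing, at 1924.5 and 2043.8 against 181.1 and 538.7, and so did Cxcl10, at 3732.6 and 3075.6 against 335.1 and 1172.4. Arrays 1 and 4 are those above a signal of 100 for Col3a1. Cx3cl1, the membrane-bound chemokine fractalkine, ran the other way, with 3558.7 and 11699.9 on arrays 2 and 3 and 1235.7 and 1292.2 on arrays 1 and 4. Whether the mix of cells has a part in this was not tested.

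Adhesion molecules had a median of 0.24 over 17 measured members, 1 with separate groups and 0 called. The median was -0.25 without control 3 and 0.60 without control 2. Vcam1, which binds leukocyte integrins, had signals of 187.6, 81.7, 2057.7 and 296.3 in controls and of 6128.5, 9054, 19608.5 and 8639.4 after soluble TNF. Control 3 was far above the other controls (4.87 ± 1.17, adjusted p = 0.204), and 2 further probe sets gave 4.31 and 4.76. Sele, the endothelial selectin, overlapped between groups, at 1185, 112.4, 324.1 and 1420.2 against 1286.1, 3764.6, 9548.5 and 1871.1. Selp, the selectin stored in Weibel-Palade bodies, overlapped too, with control 1 at 4705.1 (1.36 ± 0.80). Icam1, the ligand of leukocyte integrins that is commonly used to mark activated endothelium, reached 100 on only 3 of the 8 arrays and so was not among the genes tested. Its signals were 15.1, 27, 8.4 and 3.9 in controls and 259.2, 72.8, 362 and 132.7 after soluble TNF, which did not overlap (adjusted p = 0.267 in a fit with no filter).

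**Figure D3:**
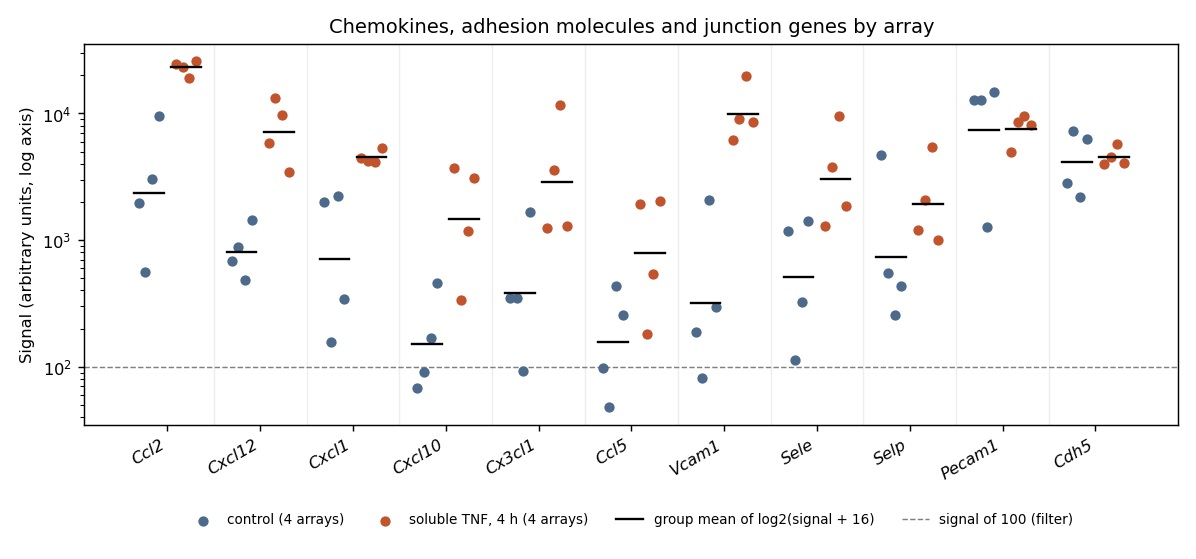
Signal (log axis) of chemokines, adhesion molecules and the junction genes Pecam1 and Cdh5, with 1 point per array and a bar at the group mean of log2(signal + 16). Ccl2, Cxcl12, Cxcl1 and Vcam1 are separate between groups, and Pecam1 is low on control 3 (1279.5) alone.

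Of the cytokines and colony-stimulating factors, 1 of 9 measured members had separate groups, with higher values, against 3.82% of all genes tested. The median of the list was 0.60, and 0.03 with no filter. Il7, a survival factor for lymphocytes, stood at 63.7 to 82.5 in controls and 110 to 175.2 after soluble TNF, close to the limit of 100. It passed the filter only through the treated arrays. Csf1, the growth factor of macrophages, had signals of 963.4, 901.6, 4222.2 and 1117.7 against 5740.4, 4127.5, 7205.8 and 5826.7, where only control 3 reached into the treated range (1.97 ± 0.47, adjusted p = 0.203). Tslp, an epithelial and stromal alarmin, had a log2 difference of 2.00 ± 0.50 with 1 control inside the treated range. Il6 did not separate at all, with 6033.4 on control 1 and 42.9 on control 2 against 77.8 to 948.9 after treatment.

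Among vasomotor genes, Edn1 rose. Edn1 had signals of 9.7, 6.3, 49.1 and 3.9 in controls and of 1170, 2617.6, 4204.5 and 618 after soluble TNF. All controls lay under the limit of 100 and all treated arrays well over it, so Edn1 was at least 14.7-fold higher (adjusted p = 0.0189). Edn1 kept its call in 7 of the 12 fits that left out 1 array and lost it without control 1, without control 2 and without soluble TNF array 1, 2 or 3, with an adjusted p of no more than 0.117 over all alternatives. Ddah1, which removes an inhibitor of nitric oxide synthesis, had separate groups, at 57.2 to 1473.6 in controls and 1640.3 to 3821.5 after treatment (2.51 ± 1.04, adjusted p = 0.353). Nos3, the endothelial nitric oxide synthase, stood at 2044.9 to 19271.7 in controls and 7134.3 to 9132.2 after treatment, and its difference of -0.07 ± 0.78 turned sign with arrays scaled to the same median. Gch1, which makes the cofactor of that synthase, had a difference of -0.89 ± 0.34 (adjusted p = 0.32). The median over the 15 measured vasomotor genes was -0.20, and 0.04 without control 1.

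Rgs16, a GTPase-activating protein that switches off G protein alpha subunits, had signals of 88, 59.8, 94.6 and 378.6 in controls and of 1854.4, 3332.4, 5396.4 and 1892.9 after soluble TNF. Rgs16 rose 20.8-fold (log2 4.38 ± 0.57, adjusted p = 0.0189), with control 4 the highest control. The other 3 controls were under 100, so this fold rests partly on values without a reliable order. A further Rgs16 probe set, with all controls over 100 (104.3 to 197.6), gave 3.43 ± 0.42, and another gave 4.05 ± 0.69. Its call held in 6 of the 12 fits leaving out 1 array and was lost without control 1 or 2 and without any one of the 4 soluble TNF arrays. Among the 7 other RGS genes measured, the groups overlapped, and values ran from -0.48 (Rgs14) to 0.82 (Rgs12).

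Slc12a2 (NKCC1), which loads cells with chloride and regulates their volume, had signals of 1462.2, 2175.6, 1546.3 and 3948.6 in controls and of 7194.4, 8875.2, 7788 and 8004.1 after soluble TNF. The treated arrays were close to each other, control 4 stood above the other controls, and Slc12a2 rose 3.76-fold (log2 1.91 ± 0.27, adjusted p = 0.0339). Both of its other probe sets separated the groups, with 1.99 ± 0.31 and 1.79 ± 0.34. Its call was the least stable of the 4: it held in 1 of the 12 fits leaving out 1 array, that without control 4 (adjusted p = 0.00167), and its highest adjusted p over all alternatives was 0.181. Slc12a9, another member of the family, lay below control on every treated array (-0.93 ± 0.27, adjusted p = 0.242), and the other 4 members measured overlapped.

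Matricellular proteins, which sit in the matrix and signal to cells, had a median of 2.26 over 7 members, next below the chemokines among the pathway lists, with 3 members separate and 0 called. With no filter on dim genes the median was 0.29, and within the Col3a1 pairs it was 1.21 (above 100) and 3.15 (below). Thbs1, an inhibitor of vessel growth, had signals of 32, 31.4, 123 and 883.6 in controls and of 5183.7, 2605.3, 987.2 and 5608.2 after soluble TNF (4.51 ± 0.98, adjusted p = 0.164; without control 4, 5.44 and adjusted p = 0.0296). Ccn1 had signals of 1647.3, 347.8, 2763.7 and 808.2 against 5635, 16802.7, 13233.4 and 5711.3 (3.09 ± 0.73, adjusted p = 0.203). Ccn2 (connective tissue growth factor) had signals of 1501.2, 544.2, 3557.1 and 841.5 against 6254.3, 11443.2, 5852.4 and 5344.3 (2.44 ± 0.49, adjusted p = 0.149; without control 3, 2.94 and adjusted p = 0.0202). Tnc, an adhesion-modulating protein of remodelling matrix, overlapped (2.26 ± 0.98), and Ccn3 had a value of -1.50 ± 0.87.

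TGF-beta and BMP signalling genes had separate groups with higher values in 5 of 29 measured members and lower values in 0. Over all genes tested these shares were 3.82% and 4.46%. The median of the list was 0.26. Tgfb2, a ligand, stood at 47.2 to 95 in controls and 136.3 to 427.5 after treatment and was at least 2.48-fold higher (adjusted p = 0.214). Smad6, an inhibitor of BMP signalling, had signals of 147.3, 116.6, 122.8 and 230.6 against 793.2, 415.9, 462.1 and 626.6 (1.79 ± 0.40, adjusted p = 0.181). Smurf2, a ubiquitin ligase that degrades receptors and Smads, had signals of 1165.7, 2235.3, 2632 and 2768.1 against 4333.2, 4735.5, 4746 and 4285 (1.11 ± 0.29, adjusted p = 0.225). Fst, a secreted trap for activins, and Smad3, a signal transducer of TGF-beta, also had separate groups, with values of 3.05 ± 1.13 and 0.85 ± 0.30.

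Kruppel-like factors had the lowest median of the pathway lists, -0.68 over 11 measured members, of which 9 had negative values. Klf9, a repressor that responds to glucocorticoids, had signals of 4092.3, 2453.5, 6943.2 and 2189.1 in controls and of 937.2, 318.1, 602.3 and 1171.6 after soluble TNF (-2.34 ± 0.47, adjusted p = 0.149). It was the 1 member with separate groups. Klf2, which maintains the quiescent state of endothelium, had signals of 5150.4, 5218.6, 2272.4 and 2809.2 against 1462.5, 1819, 1509.8 and 2806.6, where soluble TNF array 4 lay among the controls (-0.98 ± 0.42, adjusted p = 0.36). Klf4, a partner of Klf2, ranged from 603.3 to 10764.8 in controls and from 828.9 to 1132.3 after treatment, so control 4 lay below every treated array (-1.52 ± 0.66, adjusted p = 0.368). Unadjusted p-values were under 0.05 in 6 members, all lower. The median was -0.21 between arrays above a signal of 100 for Col3a1 and -1.15 between those below it.

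Immediate early genes, most of which peak within the first hour of a stimulus, had 1 member with higher and 1 with lower separate groups among 24. Over all genes tested these shares were 3.82% and 4.46%. Junb, an AP-1 subunit, stood at 165.4 to 411.9 in controls and 489.3 to 1054.1 after treatment (1.27 ± 0.40, adjusted p = 0.269). Dusp2, a phosphatase of MAP kinases, stood at 104.9 to 353.6 against 55.9 to 93.2, all under 100, and was at least 1.79-fold lower (adjusted p = 0.584). Survival and death genes gave 1 separate member of 21, Birc3, and a median of 0.19. Casp9, the initiator caspase of the mitochondrial pathway, had a value of -1.13 ± 0.37, with control 4 inside the treated range.

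Interferon-stimulated genes went in both directions, with positive values in 14 of the 43 measured. In the limma fit, unadjusted p was under 0.05 in 3 members with higher and 7 with lower values. Of 43 measured, 1 had separate groups with higher and 2 with lower values, against 3.82% and 4.46% of all genes tested. The median of the list was -0.28, and 0 passed. Irf1, a transcription factor that NF-kB also induces, had signals of 782.1, 1661.9, 648.5 and 1041.4 against 2211.3, 1959.8, 4625.2 and 1959.1 (1.36 ± 0.38, adjusted p = 0.237). Oas2, an antiviral synthetase of oligoadenylates, had signals of 154.4, 300.9, 602.5 and 191.4 against 72.2, 25, 110 and 85.1 (-1.81 ± 0.43, adjusted p = 0.203), and Trim30a, a regulator of innate signalling, stood at 1291.4 to 2701.1 against 378.3 to 963.8 (-1.23 ± 0.32, adjusted p = 0.214). The sign of this list's median turned without soluble TNF array 2, at 0.08. In MHC class I presentation, Psmb10, a subunit of the immunoproteasome, had separate higher groups (1.31 ± 0.43, adjusted p = 0.278) and H2-T24, a non-classical class I gene, separate lower ones (-1.94 ± 0.49, adjusted p = 0.209), and the median of 18 genes was -0.06, with a range of -0.45 to 0.13 over the alternatives.

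Matrix and vessel-growth genes had few separate members. Separate and lower were 2 of 14 metalloproteinases and inhibitors, 1 of 24 structural matrix genes and 1 of 28 angiogenic genes. In these lists 0 were separate and higher. Over all genes tested the shares were 4.46% lower and 3.82% higher. Timp2, an inhibitor of metalloproteinases, had signals of 15295.4, 15547.4, 10649.4 and 9128.9 against 7281.8, 7657.6, 9072.3 and 8178.5 (-0.62 ± 0.17, adjusted p = 0.237), with control 4 and soluble TNF array 3 almost touching. In the other Timp2 probe sets the groups overlapped, with log2 differences from -0.87 to -0.27. Adamts1, a protease of proteoglycans, stood at 2861.6 to 4181.5 against 1140.3 to 1817.5 (-1.16 ± 0.55, adjusted p = 0.399), and Lama5, a laminin chain of the endothelial basement membrane, at 1310.7 to 2454.3 against 960 to 1217 (-0.59 ± 0.33, adjusted p = 0.474). Vegfa, the main vascular growth factor, had signals of 2633.8, 233.9, 1432.1 and 216.2 against 139.2, 180.2, 194.4 and 201.7 (-1.83 ± 0.73, adjusted p = 0.338), so controls 2 and 4 were close to the treated arrays. In another Vegfa probe set the groups overlapped, with controls 2 and 4 (81.9 and 71.3) below every treated array (107.6 to 171.3). The medians were -0.36 over 14 metalloproteinases and inhibitors, -0.04 over 24 structural matrix genes and -0.17 over 28 angiogenic factors and receptors. The angiogenic median ran from -0.69 without controls 1 and 3 to 0.13 without control 2, and the structural matrix median from -0.26 to 0.08. Coagulation and fibrinolysis genes had a median of -0.41 over 13 members with 0 separate (0.06 with the filter at 250), and the value of Tfpi, an inhibitor of tissue factor, was -0.66 ± 0.23 (adjusted p = 0.302).

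Junction and Notch genes did not separate the groups. The 18 junction genes had a median of 0.03 (-0.46 without controls 1 and 3) with 0 separate, and the 14 Notch genes a median of -0.15 with 0 separate. Cdh5, the cadherin of endothelial junctions, stood at 2200.1 to 7305.2 in controls and 4010.3 to 5699.4 after treatment (0.14 ± 0.55, adjusted p = 0.937). Pecam1, a junctional adhesion molecule, had signals of 12666.1, 12774.7, 1279.5 and 14687.6 in controls and 4955.2 to 9566.4 after treatment. Its difference was 0.03 ± 0.70, and -0.81 without control 3.

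Among the growth and housekeeping lists, only oxidative phosphorylation had more than 1 separate member. Of 54 cell cycle genes 47 had positive values, with a median of 0.62 and 0 separate groups. Plk1, a mitotic kinase, had signals of 632.4, 1204.9, 775.9 and 3036.6 in controls and of 2574.1, 2778.8, 2430.7 and 2497.3 after soluble TNF, so control 4 lay above the treated arrays and the other 3 controls below. Without controls 1 and 3 the cell cycle median was -0.01. Of 38 subunits of oxidative phosphorylation 5 had separate groups with higher values, against 3.82% of all genes tested. In that list 28 had positive values and the median was 0.12. Uqcrc1, of complex III, had a value of 0.46 ± 0.15 and Atp5b, of the ATP synthase, 0.30 ± 0.12 (adjusted p = 0.274 and 0.34). Cholesterol and fatty acid synthesis genes had a median of 0.15 with 0 of 28 separate. Genes of the unfolded protein and ATF4 stress responses had a median of -0.46 over 27 members, 1 of them separate, Atf6, a sensor of the endoplasmic reticulum (-0.89 ± 0.38, adjusted p = 0.36). That median turned to 0.04 without controls 1 and 3, and Trib3, an ATF4 target, was high on exactly these controls (6915.1 and 7157.6, against 357.4 to 813.3 on the other 6 arrays).

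**Figure D4:**
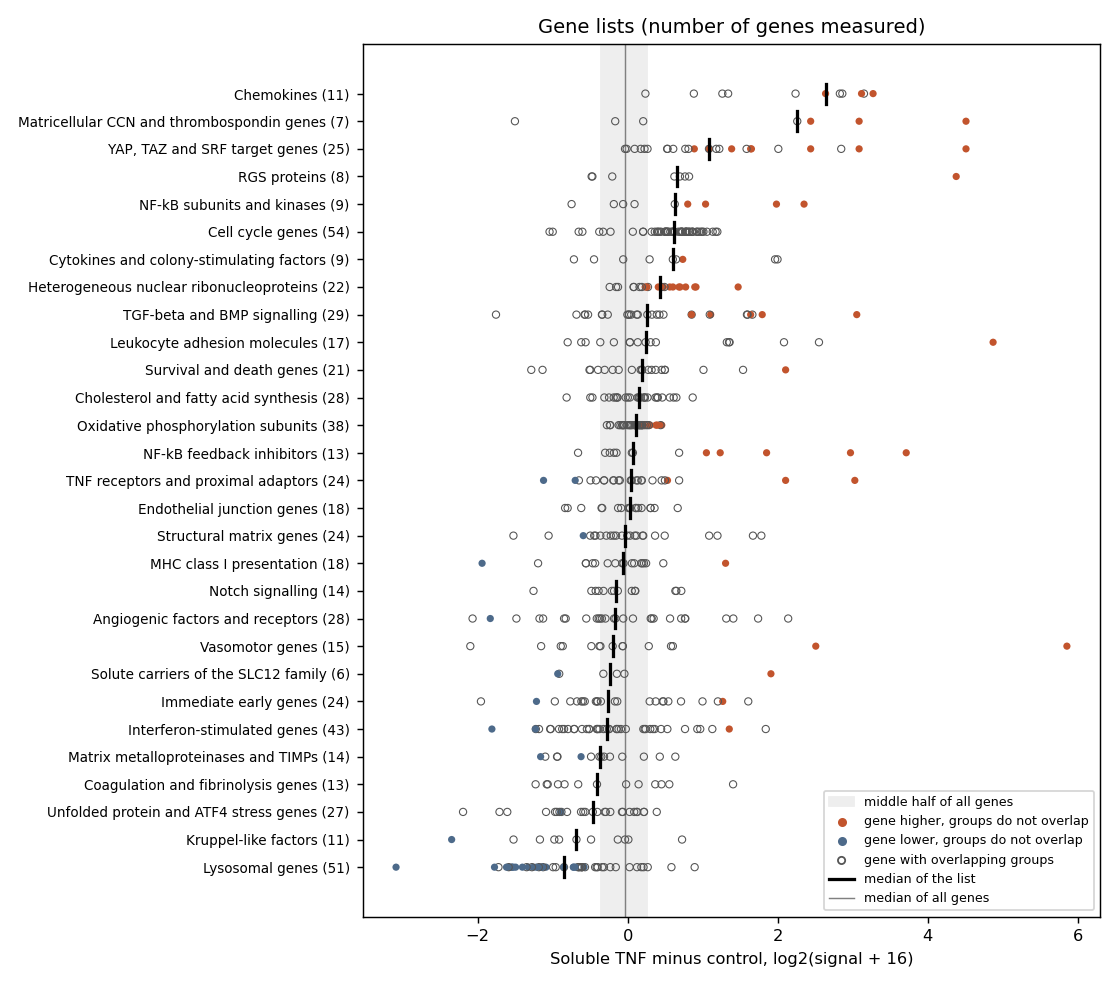
Difference between soluble TNF and control (log2 of signal + 16) for the members of each gene list with 5 or more measured genes, 1 point per gene, with the list median as a black bar and the middle 50% of all genes as a grey band (-0.35 to 0.26). Filled points are genes whose groups do not overlap; the lysosomal, ribonucleoprotein and YAP, TAZ and SRF lists were chosen after values were seen.

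Other genes with large differences belonged to no list. Higher with separate groups were Sprr1a, a protein of cornified envelopes (42.6, 1606.7, 1573.8 and 2115.4 against 8191.5, 21167.2, 10043.6 and 10139.3), and Prss23, a secreted serine protease (534.3, 293.8, 1662.8 and 1902 against 7860.7, 12749, 17850.9 and 5344.1; 3.52 ± 0.62, adjusted p = 0.0958). Acod1, which makes the antimicrobial metabolite itaconate in macrophages, was under 100 on all controls and at 120.9 to 1214.9 after soluble TNF, at least 3.84-fold higher (adjusted p = 0.237). None of these passed in the fit over all arrays, and Prss23 passed without control 4 (adjusted p = 0.0347).

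Among the genes with the largest negative differences and separate groups, controls spread widely. Cd68, a glycoprotein of macrophage lysosomes, had signals of 18210, 520.1, 2284.9 and 255.2 in controls and of 155, 149.7, 150.9 and 232.3 after soluble TNF (-3.09 ± 1.41, adjusted p = 0.382). Leukocyte markers summed to 718.7 to 18667.8 in controls and 450.7 to 604.3 after treatment, sums that include Cd68 itself. Of the 9 leukocyte markers 3, Cd68 among them, reached 100 on at least 1 array. The others, Ptprc, Adgre1, Itgam, Cd3e, Fcer1g and Tyrobp, stayed under 100 on all 8 arrays. Klk8, a kallikrein-related protease, stood at 566.6 to 2171.3 against 43.1 to 202.9 (-2.68 ± 0.60, adjusted p = 0.176). Lbp, which binds lipopolysaccharide, stood at 1647.4 to 14926.7 against 515.6 to 1494.4 (-2.45 ± 0.66, adjusted p = 0.233), and Selenop, the carrier of selenium, at 4697.7 to 21955.1 against 1174.9 to 3002.6 (-2.20 ± 0.53, adjusted p = 0.206). Bhlhe40, a repressor tied to the circadian clock, had signals of 6861.8, 3190.7, 4343.6 and 1062.4 against 738.3, 776.9, 1051.9 and 874.7, so control 4 came within the treated arrays' reach (-1.88 ± 0.49, adjusted p = 0.214; without control 4, -2.40 and adjusted p = 0.0296). Rad54b and Aatk were under 100 on every treated array, so their group means were at least 3.75-fold and 2.86-fold lower (adjusted p = 0.313 and 0.233). The size for Rad54b leaned on control 1, with signals of 3967.3, 133.2, 347.5 and 150 on controls 1 to 4. Its log2 difference of -2.43 was as small as -1.37 leaving out 1 array. Ehd3 had a value of -2.41 ± 1.00 and Crebrf of -1.97 ± 0.54 (adjusted p = 0.352 and 0.233). For Mtm1 the probe sets disagreed: the brightest gave -1.90 ± 0.64, the other two 0.78 and 0.41, and the mean of all 3 gave -0.24. Of 19 further probe sets of the genes with the 12 largest differences in either direction, 17 had the same sign and 15 also separated the groups. Agreement was weaker over all genes with separate groups. Of their 626 further probe sets, 565 had the same sign and 227 also separated the groups.

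The levels of whole lists were also read array by array. For chemokines every treated array lay above every control, with medians of 1.08 to 2.62 against -0.95 to 0.94, each relative to the control mean of each gene. Those medians cover only the 11 chemokines that passed the filter, which high treated values help a gene to pass. For cell cycle genes control 4 (1.07) lay above the treated arrays (0.51 to 0.74). Fibroblast markers divided each group in 2, at 0.92 and 1.96 on controls 4 and 3 and 2.12 and 2.32 on soluble TNF arrays 1 and 4, with the other 4 arrays at -2.20 to -1.10.

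**Figure D5:**
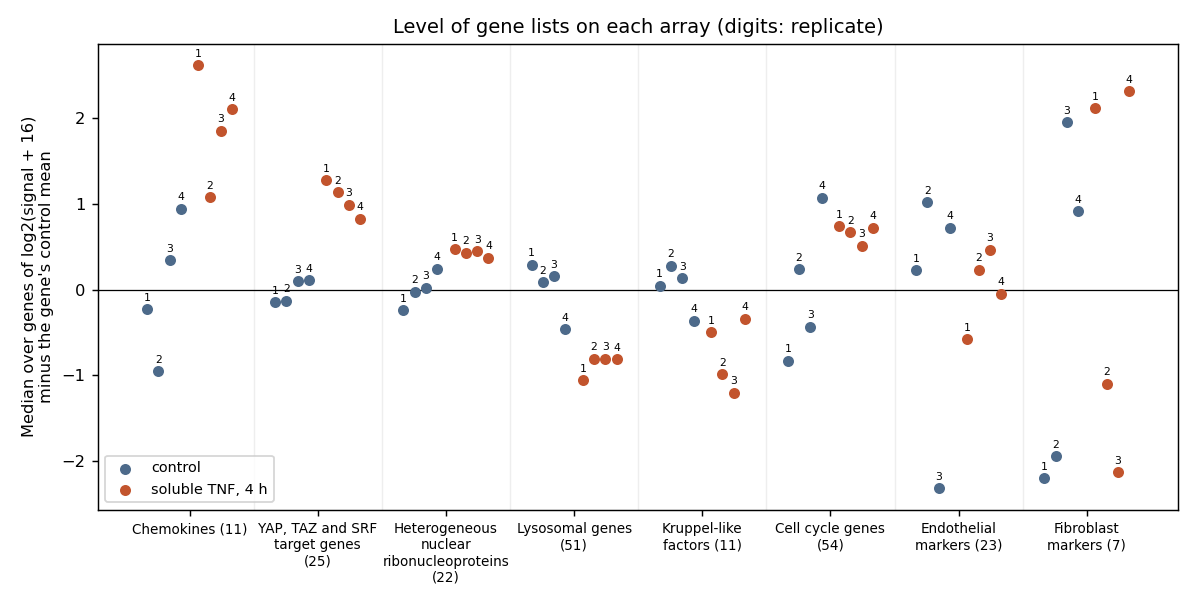
Level of 8 gene lists on each array (median over the list's genes of log2(signal + 16) minus the control mean of each gene); digits give the replicate. Chemokines that passed the filter, which high treated values help a gene to pass, separate the groups. Cell cycle genes do not because control 4 is high. Endothelial markers are lowest on control 3 (-2.32), and fibroblast markers split both groups. Of the lists shown, 3 (lysosomal, ribonucleoprotein, and YAP, TAZ and SRF) were chosen after values were seen.

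Because Col3a1 divided each group into 2 pairs of arrays, the differences were also taken within each pair, without a test. Nfkb2 was almost equal in both, with log2 differences of 2.37 between arrays above a signal of 100 for Col3a1 and 2.33 between those below it, as were Tnfaip3 (2.96 and 2.99) and Relb (1.98 and 1.99). Larger among arrays below 100 were Vcam1 (3.18 and 6.56), Ccn1 (1.91 and 4.26) and Ddah1 (0.84 and 4.17). Slc12a2 gave 1.61 and 2.21. Edn1 and Rgs16 lay higher after soluble TNF in both pairs, but both controls of at least 1 pair were under a signal of 100, so the sizes are not compared. With the Col3a1 division as a term in a fit of the 8 arrays, an alternative chosen after seeing the data, 3 genes were called: Tnfaip3 (adjusted p = 0.0201), Nfkb2 (0.0244) and Edn1 (0.0296). Control 1 stood apart by Cd68, and control 3 by its mesothelial and endothelial markers. Without both 0 genes were called (912 at an unadjusted p under 0.05), the adjusted p of Nfkb2 was 0.0767 and that of Edn1 0.0863, and groups did not overlap in 2434 genes, a count that grows as arrays are removed. Soluble TNF arrays 1 and 4 had the highest correlation of all pairs (0.984), and with them averaged into 1 sample Nfkb2 and Edn1 were called (adjusted p = 0.0451 each).

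Against the cells with stably expressed tmTNF, the 4 h response differed in 10 of the 63 named genes by the direct contrast of the same limma fit, in which 0.984% of all genes were called. Many named genes were chosen for their soluble TNF values, and the same arrays enter this contrast, so the count is not to be read against that share. Soluble TNF cells had higher Edn1 (tmTNF minus soluble TNF -3.90 ± 0.76 on the log2 scale, adjusted p = 0.0403), Rgs16 (-3.41 ± 0.57), Nfkb2 (-1.49 ± 0.26), Ccn2 (-3.15 ± 0.49) and Smurf2 (-1.52 ± 0.29). They had lower Oas2 (5.01 ± 0.43), H2-T24 (3.30 ± 0.49), Trim30a (2.74 ± 0.32), Klf9 (2.34 ± 0.47) and Timp2 (0.95 ± 0.17). Mesothelial markers summed to 18042.9 and 11925.9 on tmTNF arrays 2 and 4, against at most 4595 after soluble TNF, and endothelial markers to 46699.5 and 59011.1, against at least 78052; their part in these differences was not tested. For Klf9 the tmTNF cells lay at the control level (tmTNF minus control -0.01). Birc3 was not shown to differ (-0.15 ± 0.45, adjusted p = 0.884). The count of 10 was 2 without tmTNF array 3, 4 without tmTNF array 2 or soluble TNF array 3, 6 without tmTNF array 4 or soluble TNF array 4, and 3 without soluble TNF array 1 or 2. The Y-linked genes Eif2s3y, Kdm5d and Uty had signals of at least 129.1 on all 4 tmTNF arrays and of at most 37.9 on the control and soluble TNF arrays, so the sex of the cells and the type of TNF cannot be told apart in this contrast. Control and soluble TNF arrays were alike in lacking a signal of 100 for these 3 genes.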

How the data were processed

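The 12 arrays carry RNA of cultured mouse endothelial cells. The authors deposited a linear signal intensity for each probe set on each array. The submitters' processing notes name MAS5 and no version. Detection calls and scanner files were not used here. As deposited, each array had the same 2% trimmed mean; arrays were rescaled to a 2% trimmed mean of 500, and log2(signal + 16) was tested, so fold changes of dim genes are understated. A gene was represented by its probe set with the highest mean log2 over the 8 arrays. Groups were compared with limma 3.58.1 in R 4.3.3 (group means of all 12 arrays, moderated variance with an intensity trend, Benjamini-Hochberg over all genes, two-sided). The script was tested on simulated data.

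The members and gene lists were chosen with earlier results of these data known. Named were called genes, the 12 largest differences in each direction with separate groups and an unadjusted p under 0.05, up to 3 separate members of each list with the smallest p, and a set of known TNF targets and endothelial genes. Other list members are examples. Alternatives covered scaling, filter, pseudocount, probe sets, variance model, array weights and left-out arrays. No depth applies to arrays; their number limits the precision.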

Additional observations from a re-analysis of the deposited data

Results flagged for a closer look

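In 126 groups of 4 arrays tested for the named genes, 9 values stood apart from the other 3 of their group by Dixon's test; chance gives about 1 in 20 groups. In controls these were Sprr1a at 42.6 and Klk8 at 2171.3 on control 1, Tnip1 at 1718.7 on control 2, and H2-T24 at 160.7 and Pecam1 at 1279.5 on control 3. After soluble TNF they were Tnfrsf1b at 107 on array 2, Tnip1 at 8575.5 and Irf1 at 4625.2 on array 3, and Cd68 at 232.3 on array 4.

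For 10 named genes the direct limma contrast of tmTNF minus soluble TNF passed an adjusted p of 0.05. The log2 values were -3.90 for Edn1, -3.41 for Rgs16, -1.49 for Nfkb2, -3.15 for Ccn2, -1.52 for Smurf2, 2.34 for Klf9, 3.30 for H2-T24, 0.95 for Timp2, 5.01 for Oas2 and 2.74 for Trim30a.

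Outside the gene measurements, 2 control probe sets for 18S ribosomal RNA had mean signals of 387.9 (5' end) and 526.3 (middle) after soluble TNF, against 131 and 277.5 in controls. The probe set for the 3' end overlapped, at 402.3 to 718.8 after soluble TNF and 261.9 to 465.8 in controls.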

How the results depend on the processing

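The count of 4 genes called was 2 in the 8 arrays alone and 2 with soluble TNF arrays 1 and 4 averaged, and 0 without controls 1 and 3; leaving out 1 array gave 0 to 32. The count of 808 genes with separate groups was 2434 without controls 1 and 3, since fewer arrays separate more easily. It was 961 to 1797 leaving out 1 control or soluble TNF array. The variance model, array weights and leaving tmTNF arrays out of the fit cannot change that count. The count of 10 named genes that differed between tmTNF and soluble TNF was 27 with array weights, 3 with soluble TNF arrays 1 and 4 averaged, 17 without controls 1 and 3, and 2 to 13 leaving out 1 array. Averaging these arrays and leaving out controls 1 and 3 were chosen after seeing the data. Of 1752 pairs of a named gene and a setting, 19 turned direction, all of them in Pecam1, Cdh5, Nos3, Il6 or Tnfrsf1b, none of which was called in those settings. Pecam1 was -0.035 with quantile normalization, -0.29 with array weights, -0.85 without controls 1 and 3 and -0.81 to 0.36 leaving out 1 array. Cdh5 was -0.16 with array weights, -0.58 without controls 1 and 3 and -0.16 to 0.42 leaving out 1 array. Nos3 was 0.0221 with arrays scaled to the same median and -0.74 to 0.33 leaving out 1 array. Il6 was 0.10 with array weights, 1.64 without controls 1 and 3 and -1.84 to 0.38 leaving out 1 array, and Tnfrsf1b was 0.0172 without controls 1 and 3. The cause of these changes was not tested. No paired analysis was possible because the replicate numbers follow only the order of the samples and pair no arrays across groups. Precision is limited by 4 arrays a group, and below a signal of 100 values have no reliable order.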

Other observations

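Lysosomal genes, a list chosen after values were seen and therefore described without a test, had lower values after soluble TNF in 44 of 51 measured members, with a median log2 difference of -0.85. Groups were separate in 21 members, all lower, against 4.46% of all genes tested that were separate and lower. Ctsd, the main aspartic protease of lysosomes, had signals of 22830.7, 17078.6, 13607.7 and 14450.8 in controls and of 5551.2, 5805.7, 7246.4 and 8295.1 after soluble TNF (-1.32 ± 0.41). Mcoln1, a calcium channel of the lysosomal membrane, stood at 787.3 to 1275 against 348.5 to 438.3 (-1.40 ± 0.31), and Hexa, which degrades gangliosides, at 6958.5 to 9008.7 against 3080.8 to 4430.9 (-1.14 ± 0.31). By array the list lay at -0.46 to 0.29 in controls, lowest on control 4, and at -1.05 to -0.80 after soluble TNF. The median was -0.76 between arrays above a signal of 100 for Col3a1 and -0.99 between those below it. The list also holds Cd68.

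Targets of YAP, TAZ and SRF, the regulators that respond to tension and actin, were a second list chosen after values were seen. Values were positive in 23 of 25 members, with a median of 1.09 and 8 separate members, and 0 passed. Of all genes 3.82% were separate and higher. Of the 8, 4 are Thbs1, Ccn1, Ccn2 and Tgfb2, given above. Tpm1, an actin-binding tropomyosin, had signals of 3837, 2672.7, 3656.7 and 4563.8 against 10228.7, 9841.7, 8724.2 and 9222.4 (1.39 ± 0.36), and Crim1, a membrane protein that binds BMPs, 1057.1, 697.6, 583.8 and 675.6 against 1807.4, 2680, 3346.2 and 1853.3 (1.65 ± 0.34). The list also holds Acta2 (2.01 ± 0.63, groups overlapping), a marker of smooth muscle cells and pericytes.

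Heterogeneous nuclear ribonucleoproteins, which package and splice RNA, were the third such list. Values were positive in 19 of 22 members, 12 were separate and higher, against 3.82% of all genes, and the median was 0.43. In the main fit 0 passed. Rbmx had signals of 531, 497.8, 779.9 and 1407.3 against 2149.4, 2092.8, 1882.6 and 2168.8 (1.47 ± 0.30), and Hnrnpdl differed by 0.60 ± 0.13. These values are from the brightest probe set of each gene. The other Rbmx probe set gave -0.26 ± 0.25, with groups overlapping. Further Hnrnpdl probe sets ran from -0.42 ± 0.25 to 1.09 ± 0.40. By array the list lay at -0.24 to 0.25 in controls, highest on control 4, and at 0.38 to 0.48 after soluble TNF.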
